A study of Sus scrofa with 56 samples.

Results

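Peripheral blood mononuclear cells (PBMC) of sows (Sus scrofa) on day 11 of lactation (L11) were compared between the 2 rounds in which the experiment was run, called R1 and R2 below. All 28 L11 libraries of the 56 in the series were used, 14 labelled as replicate 2 and 14 labelled as replicate 1. The other 28 libraries came from day 98 of gestation (G98) and are used only to show where lactation differed. Housing was conventional or enriched, parity was low (LP, gestation 2 or 3) or high (HP, gestation 4 or later), and each sow had a dominance rank. In R1 and R2 alike, 4 libraries were conventional LP, 3 conventional HP, 4 enriched HP and 3 enriched LP. There were 6 dominant, 5 intermediate and 3 subordinate libraries in R1 and 5, 4 and 5 in R2. No treatment other than housing is given, nor are breed, age or what set the rounds apart. Season, herd, handling of blood and sequencing run therefore cannot be told apart.

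By ear tag, the 28 libraries came from 26 sows. The sows with ear tags T82133 (conventional HP) and T82157 (enriched HP) each had a library in R1 and a library in R2, both ranked intermediate in R1 but dominant in R2. For both sows, the R2 library resembled their own R1 library more than it did any of the 13 other R1 libraries. Over the 500 most variable genes, with the replicate difference removed, the correlation with the own library was 0.481 for T82133 (highest other 0.179) and 0.595 for T82157 (highest other 0.132). Another library stood apart: R2 replicate 8, from a conventional HP dominant sow, reached 457.6 CPM of C1QA and 1941 CPM of CD163, where the next highest of the 28 libraries held 5.904 and 223 CPM. Values without these libraries are given where they ended the call of a named gene or moved it by more than 1.5 times, and for lists whose values they moved most.

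PBMC are the lymphocytes, monocytes and dendritic cells left when blood is freed of most granulocytes and red cells. When such cells sense stress, adhesion or a stimulus, a first wave of immediate early genes (FOS, JUN, EGR and NR4A transcription factors and short-lived regulators) is switched on without new protein synthesis, and NF-kB then drives cytokines, adhesion molecules and its own inhibitors. Chemokine receptors decide where a leukocyte travels, and ribosomal protein and respiratory chain genes set how much a cell can translate and respire. In bulk RNA, fewer cells of a type and less RNA per cell cannot be told apart.

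The libraries held 18096879 to 25302990 estimated counts, with means of 21166147 in R1 and 22002341 in R2 (adjusted p = 0.415, permutation test over libraries, Benjamini-Hochberg over 16 library measures). Genes with a count above 0 averaged 14517 in R1 and 14636 in R2 (adjusted p = 0.00992, same test). R1 replicate 12, from a conventional LP subordinate sow, held 3.33% of its counts on red cell genes. Its 10 most abundant genes held 17.7%. The next highest L11 library in both was R2 replicate 14, with 1.535% and 11.7%. T and B cell, monocyte and NK cell markers were all expressed, which fits the label. The granulocyte genes ELANE and MPO stayed at or below 0.204 TPM in every library, while CSF3R, the G-CSF receptor of neutrophils and monocytes, ran from 66.6 to 200.7 TPM and LTF, lactoferrin, reached 40.8 TPM. A principal component analysis of 500 variable genes placed 29.6% of their variance on its first axis, of which the round accounted for 85%, parity for 0.7% and housing for 0%.

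Of 12298 genes tested, 5322 (43.3%) differed between R2 and R1, with 2704 (22%) higher and 2618 (21.3%) lower in R2. Called here means an adjusted p under 0.05 (quasi-likelihood test of edgeR, Benjamini-Hochberg adjustment), housing and parity being in the fit. Most differences were small: the median size over called genes was 0.42 on the log2 scale. A change of more than 2-fold was seen for 481 genes (3.91%), of which 339 (2.76%) were higher and 142 (1.15%) lower. For 480 genes (3.9%) the 14 R2 and 14 R1 libraries did not overlap, 280 (2.28%) with R2 above and 200 (1.63%) with R2 below. Below, levels are TMM-scaled CPM, differences are log2 fold changes R2 minus R1 with their standard error (SE), and every adjusted p is from that test unless stated. Ear tags mark the sows, so p-values measure the spread between animals, apart from the 2 repeated sows. Counts of called list members are to be read beside the 22% of all genes higher and 21.3% lower, near which several lists lay. Counts of members without overlap are to be read beside the 2.28% of all genes with R2 above and 1.63% below. Some genes, such as DUSP1 and SPARC, belong to more than 1 list.

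Immediate early genes were mostly higher in R2. Of 23 tested, 18 were higher and 2 lower, where 22% and 21.3% of all genes were, with a median of 1.01 against 0.015 over all genes. For 8 of them no R2 library overlapped R1. The 3 NR4A orphan nuclear receptors, which are induced within minutes by antigen receptor and stress signals, all stood far apart. NR4A3 (chromosome 1, 241569867 to 241611735) ran from 0.29 to 1.56 CPM in R1 (median 1.07, n = 14) and from 1.98 to 25.6 CPM in R2 (median 6.92, n = 14). Its lowest R2 library lay just above its highest R1 library, a difference of 3.31 (SE 0.34, adjusted p = 8.62e-09). NR4A1 ran from 8.68 to 21.5 CPM in R1 (median 12.8) and from 38.6 to 171 CPM in R2 (median 117), a difference of 2.84 (SE 0.24, adjusted p = 1.35e-10). NR4A2 ran from 16.7 to 31.4 CPM (median 22.8) and from 58.7 to 215.8 CPM (median 100.3), a difference of 2.42 (SE 0.18, adjusted p = 1.1e-11). Neither gene had overlapping groups.

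Other early regulators were higher as well, but FOS and EGR1 were not. MAFF, a small MAF transcription factor, went from a median of 4.26 CPM (2.34 to 7.29) to 29.9 CPM (15.8 to 93.9), a difference of 3.12 (SE 0.26, adjusted p = 1.48e-10). FOSL2, a FOS-related AP-1 subunit, went from 117.5 CPM (81.7 to 141) to 341 CPM (201 to 637), a difference of 1.71 (SE 0.15, adjusted p = 3.33e-10). In both, all R2 libraries were above all R1 libraries. FOS itself was spread over the same range, 220 to 403 CPM in R1 and 143 to 772 CPM in R2, with a difference of 0.0036 (SE 0.16, adjusted p = 0.989). EGR1 and DUSP1, a zinc finger factor and a phosphatase that shuts off MAP kinases, were lower in R2, by −0.79 (SE 0.22, adjusted p = 0.0045) and −0.32 (SE 0.11, adjusted p = 0.0237), with overlapping groups. SIK1, a kinase induced by cyclic AMP, was among the most distinct genes in the data: 17.1 to 42.9 CPM in R1 (median 32.3) against 123 to 409 CPM in R2 (median 270.2), a difference of 3.04 (SE 0.15, adjusted p = 5.27e-15). PDE4D, which degrades cyclic AMP, ran from 31.5 to 47.0 CPM (median 38.1) and from 127 to 257 CPM (median 177), a difference of 2.18 (SE 0.11, adjusted p = 1.48e-14). Neither gene overlapped between R1 and R2.

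Cytokine genes held the largest difference. IL1A, an alarm cytokine that acts on the IL-1 receptor (chromosome 3, 43718320 to 43731668), ran from 0 to 0.44 CPM in R1 (median 0.093) and from 1.30 to 70.6 CPM in R2 (median 8.54). It was close to absent in every R1 library and present in every R2 library, with a difference of 6.86 (SE 0.64, adjusted p = 1.085e-09), although the R2 libraries themselves spread over a wide range. Of 15 inflammatory cytokine genes tested 8 were higher and 1 lower, median 0.64, and 4 more did not pass the filter on low counts. CXCL8, the neutrophil attractant, went from a median of 2.90 CPM (0.78 to 5.01) to 9.66 CPM (2.96 to 30.5), a difference of 2.08 (SE 0.34, adjusted p = 1.61e-05), with 11 of 14 R2 libraries above the highest R1 library. IL10, an anti-inflammatory cytokine, differed by 1.645 (SE 0.22, adjusted p = 6.37e-07, 13 of 14 above) and TGFB1, another, by 0.47 (SE 0.065, adjusted p = 9.79e-07, 12 of 14 above). PTGS2, the inducible prostaglandin synthase, was the member lower in R2, from a median of 13.7 to 8.79 CPM (−0.66, SE 0.20, adjusted p = 0.00778).

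Growth factor and metabolic genes were also among the 12 largest rises. HBEGF, an EGF-family ligand made by monocytes (chromosome 2, 142102455 to 142115192), ran from 4.36 to 12.98 CPM in R1 (median 7.55) and from 23.5 to 376 CPM in R2 (median 74.6), a difference of 3.75 (SE 0.33, adjusted p = 3.58e-10). G0S2, an inhibitor of fat breakdown first found in lymphocytes re-entering the cell cycle, ran from 0.53 to 2.96 CPM (median 1.46) and from 6.90 to 72.2 CPM (median 15.9), a difference of 3.58 (SE 0.33, adjusted p = 1.098e-09). The groups did not overlap for either.

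Most NF-kB genes were higher. Of 21 tested, 14 were higher and 3 lower (median 0.32). CD83, a surface protein of activated dendritic and B cells (chromosome 7, 10346122 to 10385968), ran from 12.7 to 22.5 CPM in R1 (median 16.5) and from 86.9 to 364 CPM in R2 (median 154.5), a difference of 3.43 (SE 0.20, adjusted p = 7.06e-14). TNFAIP3, the A20 enzyme that ends NF-kB signalling, ran from 103.5 to 333 CPM (median 158) and from 524 to 1797 CPM (median 1068), a difference of 2.61 (SE 0.17, adjusted p = 1.18e-12). Both were without overlap, as was ICAM1, an adhesion molecule, at 1.71 (SE 0.14, adjusted p = 1.27e-10). The inhibitors NFKBIE (1.21, SE 0.12, adjusted p = 4.53e-09) and NFKBIA (1.72, SE 0.21, adjusted p = 1.5e-07) were higher with partly overlapping groups, while the subunit genes RELB, NFKB2 and RELA were at 0.35, 0.32 and 0.19 and NFKB1 was at −0.033 (SE 0.044, adjusted p = 0.572). TNIP2, TNIP3 and TRAF1, regulators of the same pathway, were lower by −0.24, −0.49 and −0.50.

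**Figure D1:**
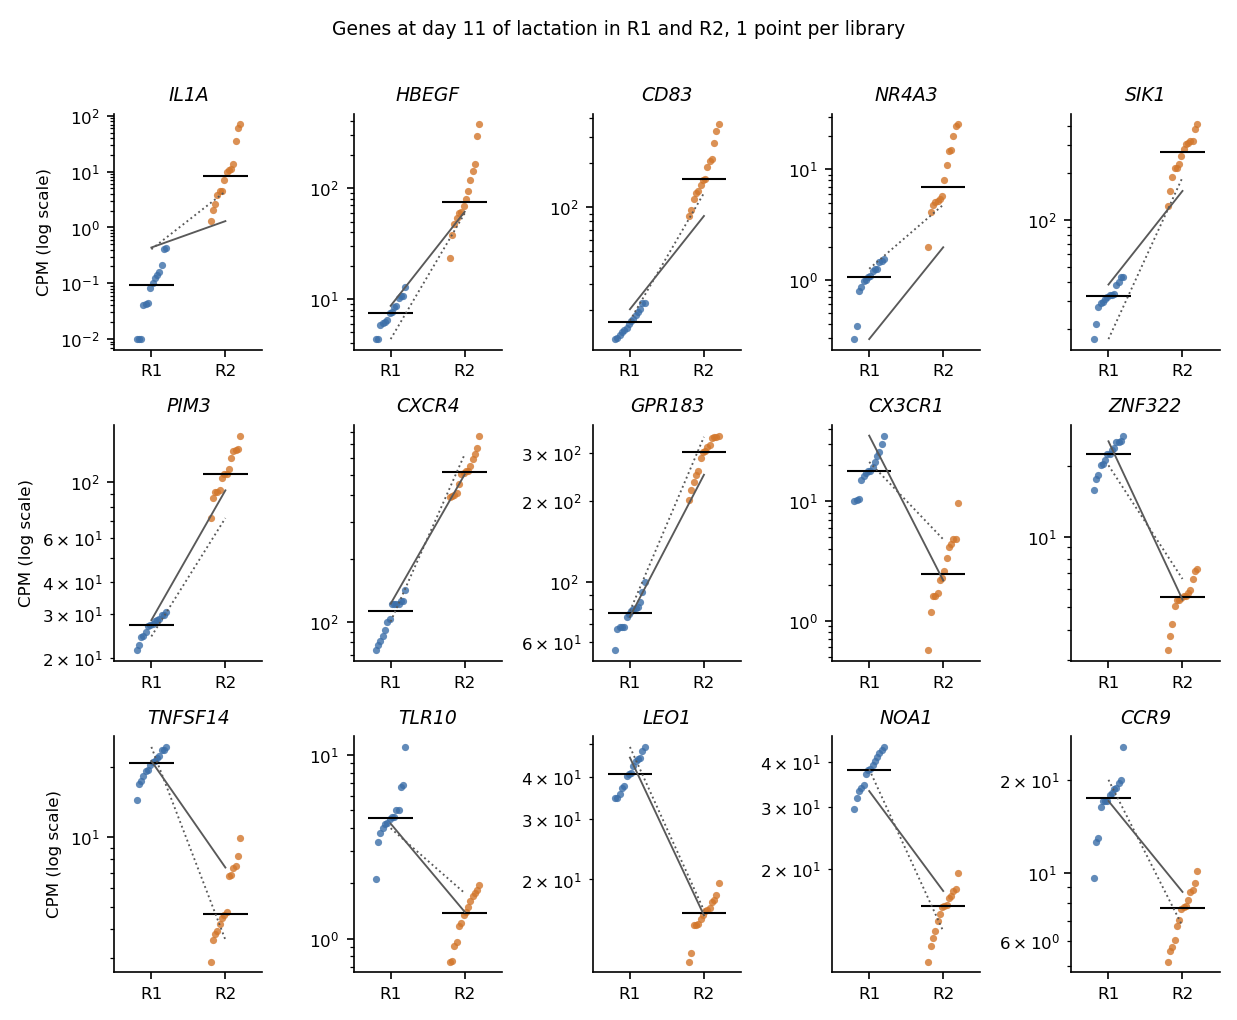
Level of 15 genes in each of the 28 L11 libraries, in CPM on a log axis, with R1 in blue and R2 in orange, 1 point per library in rising order, a bar at the group median and values under 0.01 drawn at 0.01. Grey lines join the libraries of sow T82133 (solid) and T82157 (dotted). The groups do not overlap for any of the 15 except CCR9, and both sows move with the groups in all of them, as for IL1A, 0.44 to 1.30 CPM and 0.41 to 4.42 CPM.

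Receptors that steer leukocytes differed in both directions. CXCR4, the receptor for CXCL12 that holds cells in marrow and tissue (chromosome 15, 15663652 to 15666706), ran from 73.3 to 141 CPM in R1 (median 112) and from 392 to 770.1 CPM in R2 (median 515), a difference of 2.31 (SE 0.11, adjusted p = 5.27e-15). GPR183, the oxysterol receptor that places B and T cells in lymphoid follicles (chromosome 11, 68231851 to 68248627), ran from 56.04 to 100.1 CPM (median 77.1) and from 202 to 348 CPM (median 304), a difference of 1.92 (SE 0.092, adjusted p = 4.1e-15). Every R2 library was above every R1 library for both. CX3CR1, the fractalkine receptor of patrolling monocytes and cytotoxic cells (chromosome 13, 23944386 to 23957567), was the reverse: 10.01 to 35.2 CPM in R1 (median 17.8) and 0.57 to 9.62 CPM in R2 (median 2.44), the largest fall of all tested genes at −2.62 (SE 0.27, adjusted p = 7.11e-09). Its highest R2 library lay just under its lowest R1 library. Of 14 chemokine receptors tested, 4 were higher and 6 lower (median −0.21, and −0.33 without R2 replicate 8). CCR3, an eotaxin receptor of basophils and eosinophils, differed by −1.37 (SE 0.16, adjusted p = 7.97e-08, 13 of 14 R2 libraries below the lowest R1 library). CCR9, which directs cells to the gut, fell from a median of 17.5 CPM (9.63 to 25.6) to 7.69 CPM (5.15 to 10.1), a difference of −1.20 (SE 0.11, adjusted p = 3.44e-10), with 1 overlapping library. CCR4, CCR6 and CXCR5 were also lower, by −1.39, −0.94 and −0.44, and CXCR6 and CXCR3 higher, by 1.93 and 0.46, CXCR6 from a low level (median 0.38 to 1.18 CPM).

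Pattern recognition receptors were lower more often than higher. Of 22 Toll-like receptor and related genes, 7 were lower and 3 higher (median −0.16), where 21.3% and 22% of all genes were. Whether the family departs from those shares was not tested. TLR10 (chromosome 8, 30124895 to 30134854) ran from 2.104 to 11.07 CPM in R1 (median 4.54) and from 0.75 to 1.95 CPM in R2 (median 1.37), −1.86 (SE 0.19, adjusted p = 6.75e-09). Its neighbours in the family, TLR1 and TLR6, which pair with TLR2 to bind bacterial lipopeptides, differed by −1.50 (SE 0.15, adjusted p = 5.04e-09) and −0.95 (SE 0.076, adjusted p = 5.93e-11), the latter without overlap. How reads shared by TLR1, TLR6 and TLR10, which are close relatives, were assigned is not given. TLR2 was at 0.00050 (adjusted p = 0.998), TLR4, the endotoxin receptor, was lower at −0.52, and TICAM1, the adaptor of TLR3 and TLR4, was higher at 0.92 (SE 0.11, adjusted p = 6.25e-08).

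The 12 largest falls held genes of several kinds. TNFSF14, the TNF-family ligand LIGHT (chromosome 2, 72478178 to 72483885), ran from 14.5 to 24.5 CPM in R1 (median 20.8) and from 2.89 to 9.90 CPM in R2 (median 4.67), −1.87 (SE 0.14, adjusted p = 1.66e-11). CNR2, the cannabinoid receptor of immune cells, fell from a median of 27.7 CPM (19.2 to 35.8) to 10.2 CPM (4.997 to 13.5), −1.60 (SE 0.13, adjusted p = 6.51e-11). CDC42EP3, an actin regulator downstream of CDC42, fell from 22.0 CPM (15.2 to 33.9) to 7.62 CPM (4.15 to 8.79), −1.67 (SE 0.13, adjusted p = 4.79e-11). The groups were apart in all 3. FPGT, FILIP1L, CCDC65 and DNAJC28, all at low levels, were also among the 12 largest falls at −1.89, −1.51, −1.58 and −1.52.

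Genes with the smallest p in the downward direction, and CMTR2 of the largest falls, follow. ZNF322, a zinc finger factor (chromosome 7, 21128040 to 21143404), ran from 15.8 to 26.9 CPM in R1 (median 22.5) and from 3.28 to 7.25 CPM in R2 (median 5.52), −2.002 (SE 0.11, adjusted p = 1.94e-14). LEO1, part of the PAF1 elongation complex (chromosome 1, 119804992 to 119842343), ran from 34.7 to 48.9 CPM (median 40.8) and from 11.5 to 19.5 CPM (median 15.95), −1.39 (SE 0.071, adjusted p = 8.1e-15). CMTR2, a cap methyltransferase, fell from 5.12 CPM (3.34 to 8.55) to 1.12 CPM (0.77 to 2.1), −2.14 (SE 0.18, adjusted p = 1.18e-10). Again, the groups did not overlap. METTL3, the catalytic subunit of the m6A RNA methyltransferase, differed by −1.02 (SE 0.061, adjusted p = 1.33e-13), CHTOP, an mRNA export factor, by −0.82 (SE 0.046, adjusted p = 5.72e-14), and NOA1, a GTPase of mitochondrial translation, by −1.30 (SE 0.079, adjusted p = 2.63e-13), without overlap. FBXO34 (−1.03), an F-box protein, RAB29 (−0.82), a trafficking GTPase, and GOPC (−0.83), a Golgi scaffold, did the same. Among 28 splicing and RNA-binding genes 8 were higher and 9 lower (median −0.0040), or 5 and 9 with upper quartile scaling. RBM3, a cold-inducible RNA-binding protein, went up from a median of 93.3 to 226 CPM (1.17, SE 0.077, adjusted p = 1.18e-12), TRA2B from 104 to 209 CPM (1.06) and HNRNPA1 from 557 to 910 CPM (0.78), all without overlap. CLK4, a splicing kinase, was lower at −0.64. RBM5, a splicing regulator outside the list, was lower at −0.94 without overlap.

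PIM3, a serine-threonine kinase of cell survival (chromosome 5, 677705 to 680690), had the smallest p of all genes with a symbol: 21.4 to 30.4 CPM in R1 (median 27.1) against 72.1 to 154 CPM in R2 (median 108), 2.05 (SE 0.093, adjusted p = 1.42e-15). UBALD2, a small ubiquitin-binding protein, differed by 2.02 (SE 0.10, adjusted p = 6.99e-15), PPP1R10, a nuclear phosphatase subunit, by 1.34 (SE 0.068, adjusted p = 7.88e-15) and RNF146, a ubiquitin ligase, by 1.14 (SE 0.060, adjusted p = 1.48e-14). All 14 R2 libraries were above all 14 R1 libraries for these 4 genes.

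Glucocorticoid-responsive genes split by member. Of 15 tested, 8 were higher and 3 lower (median 0.37). R2 was above R1 without overlap for 5 of them, where this held for 2.28% of all genes. The list's highest value, 2.31, was that of CXCR4, given above among the chemokine receptors. KLF9, a zinc finger factor that glucocorticoids induce, went from a median of 10.1 CPM (4.60 to 12.7) to 44.1 CPM (22.2 to 53.0), 2.20 (SE 0.15, adjusted p = 3.75e-12). PER1, a clock gene with the same property, went from 87.8 CPM (48.4 to 118) to 414 CPM (209 to 657), 2.24 (SE 0.14, adjusted p = 2.47e-13). DDIT4, an inhibitor of mTORC1 signalling, differed by 1.72 (SE 0.16, adjusted p = 1.65e-09). All 3 were without overlap, while FKBP5, another glucocorticoid target, was at −0.30 and not called, and SGK1, TXNIP and DUSP1 were lower (SGK1 −0.65, TXNIP −0.49). The receptor gene NR3C1 was higher by 0.37 (SE 0.075, adjusted p = 0.000192). Of 17 circadian genes, 4 were higher and 3 lower (median −0.087), or 4 and 6 with upper quartile scaling. BHLHE40, a clock repressor, was higher at 2.26 (SE 0.19, adjusted p = 1.04e-10, no overlap), CRY2 at 0.72 and NFIL3 at 0.65, whereas BHLHE41, HLF and CRY1 were lower at −0.51, −0.41 and −0.21, and BMAL1 was at −0.0024. Of 11 hormone receptor genes tested 6 were higher and 0 lower (median 0.37; 6 and 1 with upper quartile scaling), including the mineralocorticoid receptor NR3C2 (0.64), the insulin receptor INSR (0.42) and PPARD (0.41), a fatty acid sensor. The prolactin receptor was among 8 of the 19 that did not pass the filter on low counts.

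Of 30 hypoxia and glycolysis genes, 13 were higher and 2 lower (median 0.17), or 11 and 5 with upper quartile scaling. PFKFB3, which raises glycolytic flux, went from a median of 56.6 CPM (34.4 to 80.9) to 243 CPM (114.5 to 390.0), 2.15 (SE 0.20, adjusted p = 6.89e-10). VEGFA, an angiogenic factor, differed by 1.88 (SE 0.15, adjusted p = 3.02e-11), also without overlap, and ADM, a vasodilator peptide, by 2.81 (SE 0.43, adjusted p = 6.19e-06) from a low level. Glycolytic enzymes moved less, GAPDH at 0.38, TPI1 at 0.40 and LDHA at 0.28. Of 24 cholesterol and lipid genes, 6 were higher and 2 lower (median 0.12), or 6 and 4 with upper quartile scaling. INSIG1, which holds back sterol synthesis, led with 2.02 (SE 0.18, adjusted p = 3.05e-10, no overlap), followed by the sterol regulators SREBF1 (0.65) and SREBF2 (0.28). CYP51A1 and FDFT1, synthesis enzymes, were lower at −0.35 and −0.21. Of 6 aryl hydrocarbon receptor genes, TIPARP (0.90, no overlap) and CYP1B1 (1.501), both targets of the receptor, were higher, and AHR was at −0.016 (median of the list 0.16).

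**Figure D2:**
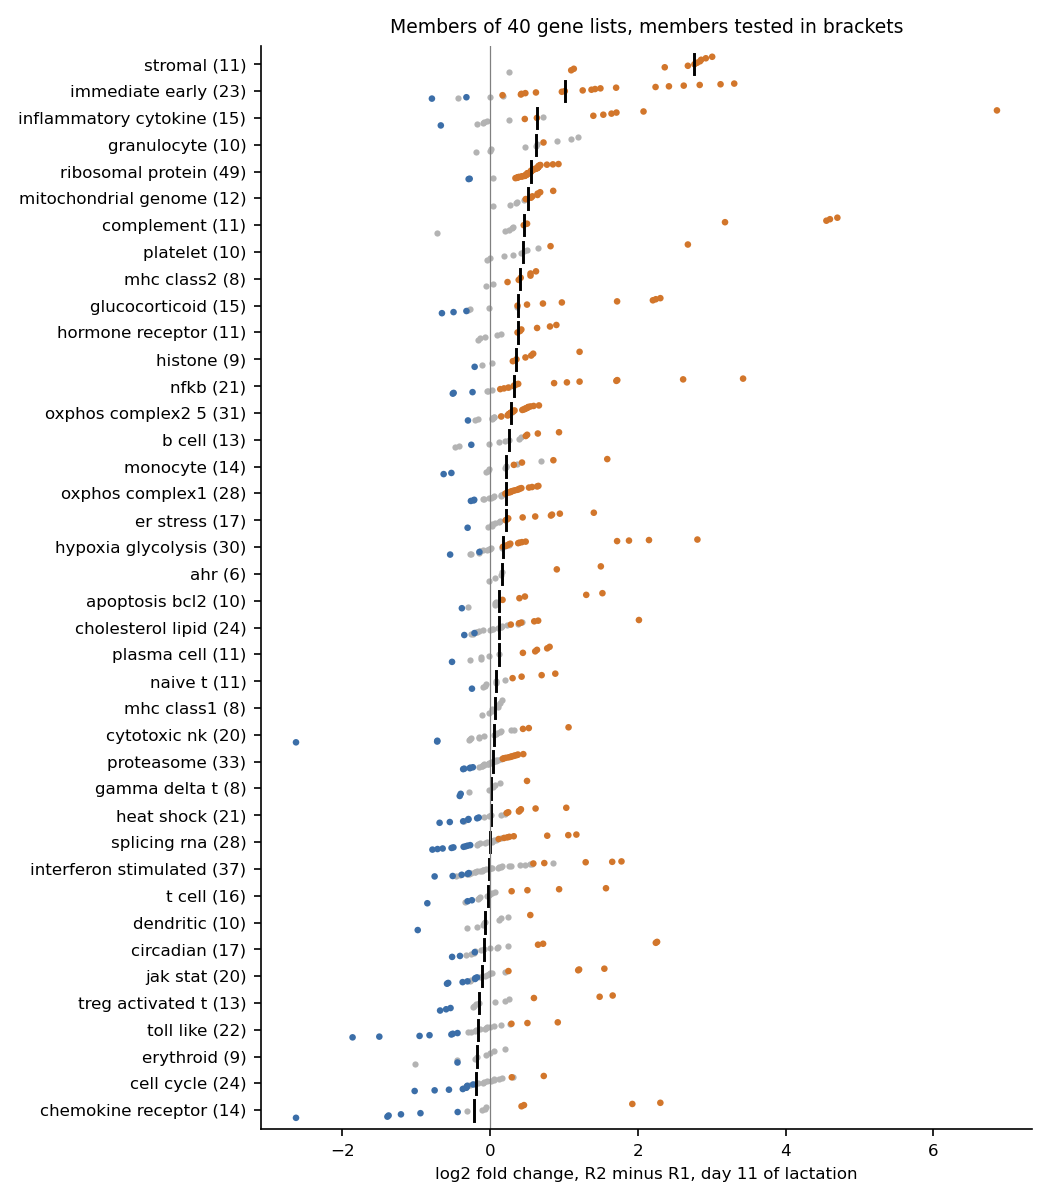
Log2 fold change, R2 minus R1, of every tested member of the 40 gene lists, with the number tested in brackets and a black bar at the list's median. Orange points were called higher in R2, blue points lower, and grey points were not called. The stromal and immediate early lists have the highest medians, 2.77 and 1.01, and the chemokine receptor list the lowest, −0.21.

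T cell genes did not move as a block. The share of counts on the T cell list averaged 0.372% ± 0.038 (SD) in R1 and 0.333% ± 0.0473 in R2 (adjusted p = 0.0675, permutation test). Of 16 T cell receptor and signalling genes, 4 were higher and 3 lower (median −0.028, and 0.024 without R2 replicate 8), or 4 and 5 with upper quartile scaling of the libraries. CD28, the main costimulatory receptor, ran from 26.5 to 39.3 CPM in R1 (median 30.8) and from 54.7 to 132 CPM in R2 (median 94.2), 1.57 (SE 0.084, adjusted p = 1.7e-14), without overlap. BCL11B, a T lineage factor, was higher by 0.51 (SE 0.099, adjusted p = 0.000129). TRAT1, a receptor-associated adaptor, was lower at −0.85 (SE 0.16, adjusted p = 6.72e-05), CD8A at −0.30 and CD3D at −0.24, with CD3E at 0.022 (adjusted p = 0.829) and CD4 at 0.070 (adjusted p = 0.626). Of 11 naive T cell genes 4 were higher and 1 lower (median 0.083), the transcription factors FOXP1 (0.88, no overlap), BACH2 (0.70) and MYC (0.43) against KLF2 (−0.24). Of 13 regulatory and activated T cell genes 3 were higher and 3 lower (median −0.15): the checkpoint receptor CTLA4 (1.66, 12 of 14 R2 libraries above the highest R1 library), the early activation receptor CD69 (1.48, 13 of 14 above) and TNFRSF18 (0.60) were higher, the inhibitory receptor TIGIT (−0.67), TNFRSF4 and TNFRSF9 lower, and FOXP3 was at −0.21 and not called. Of 8 gamma delta T cell genes, 1 was higher, the lineage factor ZBTB16 at 0.50, and 2 were lower, among them the factor GATA3 at −0.40 (median 0.014).

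Cytotoxic genes were mixed as well. Of 20 tested, 3 were higher and 3 lower (median 0.059). PRF1, the pore-forming protein perforin, differed by 1.06 (SE 0.13, adjusted p = 2.45e-07, 13 of 14 R2 libraries above R1) and TYROBP, an NK and myeloid adaptor, by 0.45. The list's largest fall was CX3CR1 at −2.62, given above among the chemokine receptors. TBX21, the factor T-bet, was lower by −0.71 (SE 0.12, adjusted p = 3.06e-05, 11 of 14 below) and the receptor KLRK1 also by −0.71. Among 13 B cell genes 4 were higher and 1 lower (median 0.26): the B lineage factors EBF1 (0.93, SE 0.20) and PAX5 (0.65, SE 0.19), the scaffold BANK1 (0.48, SE 0.13) and the survival receptor TNFRSF13C (0.50) against the adaptor BLNK (−0.25, SE 0.079). CD79A, a chain of the B cell receptor, was at 0.13 (adjusted p = 0.284) and MS4A1, the CD20 gene, at −0.47 (adjusted p = 0.0838). Of 11 plasma cell genes 5 were higher and 1 lower (median 0.12), the differentiation factors PRDM1 (0.81), IRF4 (0.64) and XBP1 (0.61, no overlap) and the signal peptidase subunit SEC11C (0.45) against JCHAIN, the joining chain of secreted antibody (−0.51). Of 10 dendritic cell genes IRF8 was higher (0.55) and ZBTB46 lower (−0.98, SE 0.12, adjusted p = 1.61e-07), both being lineage factors (median −0.071), and with upper quartile scaling 1 was higher and 2 lower.

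MHC class II genes, which present extracellular antigen, were higher, and class I genes were not called in the main fit. Of 8 MHC class II pathway genes, 6 were higher and 0 lower (median 0.40). CD74, the invariant chain, ran from 2140 to 3473 CPM in R1 (median 2820) and from 3254 to 6309 CPM in R2 (median 4140), 0.62 (SE 0.090, adjusted p = 2.24e-06), with 1 R2 library inside the R1 range. The pig class II genes SLA-DOA, SLA-DQB1 and SLA-DMB differed by 0.55, 0.55 and 0.42. Of 8 MHC class I pathway genes 0 were called by edgeR, 0 by DESeq2 and 0 had an unadjusted p under 0.05 (median 0.069, −0.10 to 0.16). With upper quartile scaling 1 was lower, as with an effective length offset. Without the repeated sows and R2 replicate 8, 1 was higher. Monocyte genes numbered 4 higher and 2 lower of 14 (median 0.22, and −0.061 without R2 replicate 8). CEBPB, a factor of activated monocytes, ran from 174 to 336 CPM in R1 (median 266.5) and from 552 to 1686 CPM in R2 (median 636), 1.59 (SE 0.16, adjusted p = 4.04e-09), without overlap. CSF1R, the growth factor receptor, was at 0.43 and CD68, a lysosomal protein, at 0.86 (0.55 without R2 replicate 8), while CEBPA was lower at −0.63 and CD14 was at −0.025 (adjusted p = 0.955).

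Cytokine signalling genes differed in both directions. Of 20 JAK-STAT genes 4 were higher and 7 lower (median −0.10). SOCS1 and SOCS3, inhibitors of the pathway, were higher by 1.55 (SE 0.22, adjusted p = 1.31e-06) and 1.21 (SE 0.20, adjusted p = 1.87e-05), and the kinase PIM1 by 1.19 (SE 0.10, adjusted p = 1.63e-10, no overlap). SOCS4, SOCS5 and SOCS6, of the same family, were lower (SOCS6 −0.56), as were JAK1, JAK2, STAT3 and STAT6 by −0.18 to −0.30. Of 37 interferon-stimulated genes 5 were higher and 5 lower (median −0.012), and 3 were lower without the repeated sows or without R2 replicate 8. IRF1 was higher at 1.30 (SE 0.14, adjusted p = 1.81e-08, no overlap) and ISG15, an ubiquitin-like modifier, at 1.78 (SE 0.33, adjusted p = 7.19e-05), while SAMHD1, which limits viral replication, and DTX3L, a ubiquitin ligase, were lower at −0.50 and −0.75. Of 10 BCL2 family genes 5 were higher and 1 lower (median 0.13), among them the anti-apoptotic BCL2A1 (1.52), the pro-apoptotic PMAIP1 (1.30, no overlap), BID (0.47) and BAD (0.40). Of 24 cell cycle genes 2 were higher and 8 lower (median −0.19), or 1 and 10 with upper quartile scaling. The 2 E cyclins went opposite ways, CCNE1 at 0.73 (SE 0.093, adjusted p = 3.21e-07) and CCNE2 at −1.02 (SE 0.16, adjusted p = 7.89e-06), and the replication genes CDC6 and RRM1 were lower at −0.55 and −0.31.

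Ribosomal protein genes were higher almost without exception. Of 49 tested, 46 (93.9%) were higher and 2 lower (median 0.55), and for 10 the groups did not overlap. Together the list took 7.48% ± 0.784 of the counts in R1 and 9.78% ± 1.19 in R2 (adjusted p = 0.00032, permutation test). RPS16 (chromosome 6, 48085684 to 48088368) ran from 1161 to 1694 CPM in R1 (median 1427) and from 1745 to 4436 CPM in R2 (median 2696), 0.93 (SE 0.10, adjusted p = 3.93e-08). RPL11 ran from 1647 to 2344 CPM (median 1955) and from 2507 to 5613 CPM (median 3572), 0.85 (SE 0.097, adjusted p = 4.7e-08). RPSA and RPS29 were likewise without overlap at 0.67 and 0.64. The 2 lower members were FAU, a fusion of a ubiquitin-like protein and RPS30 (−0.29), and RPL7L1, a ribosome assembly factor (−0.27). Ribosomal protein genes have many near-identical pseudogenes, and how shared reads were split is not given.

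Respiratory chain genes followed with smaller differences. Of 28 complex I genes encoded in the nucleus 15 were higher and 3 lower (median 0.22), such as the subunits NDUFA11 (0.66, SE 0.11), NDUFB9 (0.64, SE 0.12), NDUFS8 (0.57, SE 0.10) and NDUFB7 (0.53, SE 0.10). Of 31 genes of complexes II to V 21 were higher and 1 lower (median 0.28), with the cytochrome oxidase subunit COX4I1 at 0.55 (SE 0.081, no overlap) and the ATP synthase subunits ATP5ME, ATP5MC1 and ATP5MC3 at 0.59, 0.52 and 0.50. Of 12 genes of the mitochondrial genome 7 were higher and 0 lower (median 0.52), ND3, of complex I, at 0.86 (SE 0.15), ATP6 at 0.68, COX3 at 0.64 and CYTB at 0.57. Their share of counts averaged 3.16% in R1 and 3.98% in R2 (adjusted p = 0.0937, permutation test). Of 33 proteasome genes 11 were higher and 5 lower (median 0.039), and with upper quartile scaling 7 were higher and 7 lower (median −0.0030), PSMA1 at 0.45, PSMC3 at 0.32 and PSMD3 at 0.28 against PSMA5 at −0.35. Of 17 endoplasmic reticulum stress genes 9 were higher and 1 lower (median 0.21), led among named genes by the chaperone HSPA5 (0.84, SE 0.083, adjusted p = 3.58e-09), the co-chaperone DNAJB9 (0.95) and HERPUD1 (0.83), of protein degradation. HSPA5, HERPUD1 and XBP1 did not overlap. Of 21 heat shock genes 8 were higher and 7 lower (median 0.013), with the co-chaperone BAG3 at 1.03 and HSP90AB1 at 0.41 against the co-chaperones STIP1 at −0.36 and CHORDC1 at −0.68. Of 9 histone genes 6 were higher and 1 lower (median 0.36), among them the linker histone H1-3 (0.59) and the core histones H2AJ (0.36) and H2BC5 (0.31). H2AJ was no longer called without the repeated sows (0.34, adjusted p = 0.0513), nor was H2BC5 when R2 replicate 8 was left out too (0.23, adjusted p = 0.0769), and 3 of the histone genes were higher without these sows, 2 without that library as well.

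Genes of connective tissue cells, which are not blood cells, were higher in R2. Of 11 tested 10 were higher and 0 lower, with a median of 2.77, the highest of the 40 lists. COL3A1, a fibrillar collagen, ran from 0.040 to 46.2 CPM in R1 (median 3.04) and from 13.9 to 335.5 CPM in R2 (median 44.9), 3.01 (SE 0.68, adjusted p = 0.000667). DCN, the matrix proteoglycan decorin, ran from 0 to 17.2 CPM (median 1.22) and from 5.10 to 57.0 CPM (median 14.8), 2.84 (SE 0.59, adjusted p = 0.000262). The groups overlapped in both, some R1 libraries being near 0 and others within the R2 range. COL6A3, another collagen, and SPARC, a matrix protein also stored in platelets, were at 2.37 (SE 0.56) and 2.68 (SE 0.57). PI16, SFRP4 and PCOLCE2, secreted proteins also made by fibroblasts, were among the 12 largest rises at 3.28 (SE 0.48), 3.31 (SE 0.65) and 3.18 (SE 0.59). The endothelial gene PECAM1 was at 0.26 (adjusted p = 0.0612). The list, PECAM1 included, took 0.0285% ± 0.00552 of counts in R1 and 0.0523% ± 0.0295 in R2 (adjusted p = 0.000533, permutation test). The medians were 0.0284% and 0.0429%, and the highest share of a library was 0.129%. PECAM1 had a median of 82.4 TPM in R1 and 73.3 TPM in R2, against 1.16 and 14.9 TPM for COL3A1. These shares therefore do not stand for the collagen and matrix genes alone. The part of connective tissue genes in the other differences was not tested.

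**Figure D3:**
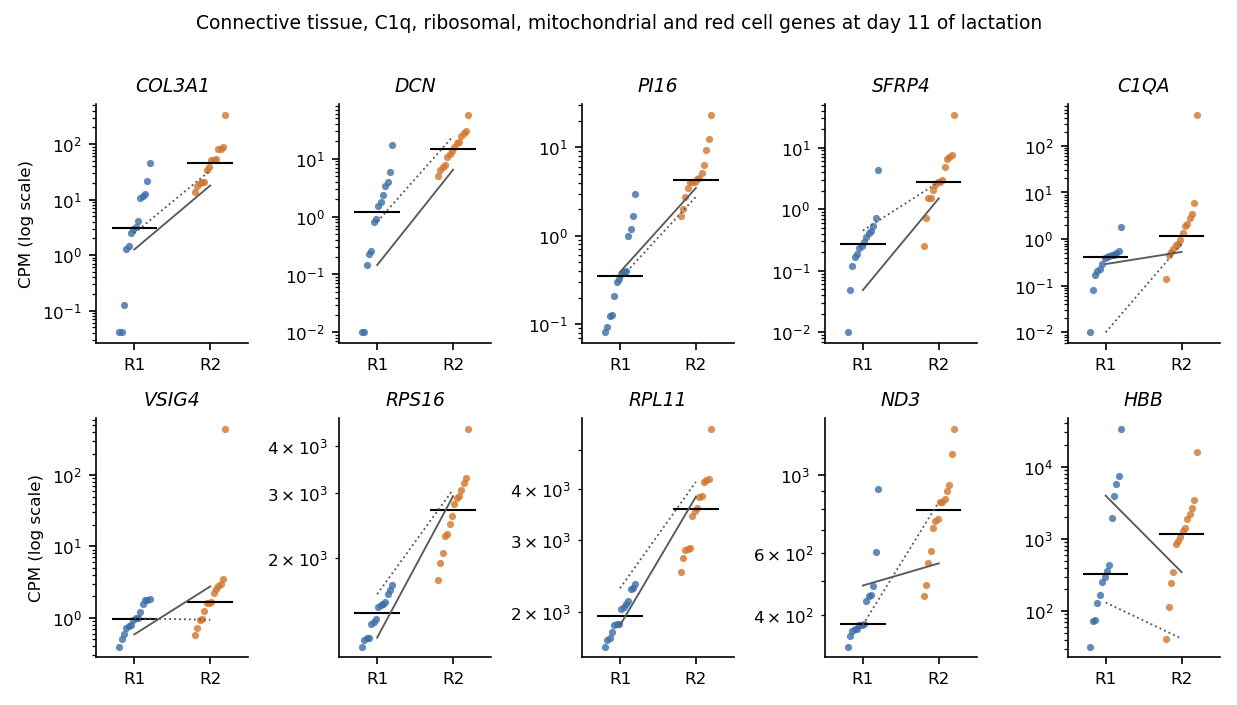
Level in CPM on a log axis of 10 genes in the 28 L11 libraries, drawn as in the plot of 15 genes. The collagen and other matrix genes overlap between R1 and R2, RPS16 and RPL11 do not, HBB covers the same range in both, and a single R2 library holds C1QA at 457.6 CPM and VSIG4 at 441.7 CPM.

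Complement genes were higher in part through R2 replicate 8. Of 11 tested 6 were higher and 0 lower (median 0.46). With DESeq2, 2 of the 6 with an adjusted p were higher, and with a stricter filter on low counts 3 of 7. With limma voom and the sow as a random block 4 were higher and 1 lower. The C1q chains C1QB, C1QC and C1QA, made by tissue macrophages, were at 4.70 (SE 1.01), 4.60 (SE 1.10) and 4.55 (SE 1.11), and at 2.29, 2.01 and 2.02 without that library, still called. The median of C1QA was 0.41 CPM in R1 and 1.16 CPM in R2, with overlapping groups. VSIG4, a complement receptor of macrophages, went from 3.18 to 0.77 without that library (adjusted p = 0.0275), and to 0.68 (adjusted p = 0.0803) when the repeated sows were left out too, which ends its call. Of 10 granulocyte genes 1 was higher, PGLYRP1 (0.72), an antibacterial peptidoglycan-binding protein, and the median was 0.63 with all libraries and −0.041, over 8 tested, without R2 replicate 8. Of 10 platelet genes 2 were higher and 0 lower (median 0.44), SPARC and GP1BB, a subunit of the von Willebrand factor receptor (0.82, SE 0.30, adjusted p = 0.030). The call of GP1BB was lost without the repeated sows (0.76, adjusted p = 0.082) and without R2 replicate 4, R2 replicate 14 or R1 replicate 12, each on its own (highest adjusted p = 0.0713). Of 9 red cell genes 1 was lower, BPGM (−0.45), an enzyme of red cell glycolysis. HBB, the beta globin, ran from 32.3 to 33320 CPM in R1 and from 41.6 to 16200 CPM in R2, −0.057 (SE 0.92, adjusted p = 0.968).

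The 2 sows with a library in each round give the difference within an animal, if an ear tag marks the same animal in both rounds. Both changed rank from intermediate to dominant, and their age and gestation number in each round are not given. Within these sows, rank, age and gestation number cannot be told apart from the round. For this, the fit was made on the other 24 libraries, in which 4764 of 12250 genes (38.9%) were called, 2405 (19.6%) higher and 2359 (19.3%) lower. Of the 2402 higher genes with a value in both sows, 92.1% were higher in the R2 library of T82133 and 83.7% in that of T82157, against 50.1% and 50.8% of all genes. Of 2359 lower genes, 92.2% and 84.4% were lower, against 49.8% and 49.2% of all genes. In both sows at once the shares were 77% of the higher and 77.6% of the lower genes. Among the 346 genes more than 2-fold higher in the 24 libraries, 87% were higher in both sows, and among the 145 more than 2-fold lower, 91.7% were lower in both. The sows differed in size for some genes: CX3CR1 fell from 35.1 to 2.17 CPM in T82133 and from 21.2 to 4.79 CPM in T82157, SIK1 went from 38.3 to 153 CPM and from 17.1 to 187 CPM. Some named genes differed in direction, in log2 CPM CXCL8 by −0.54 in T82133 and 1.43 in T82157, ISG15 by 2.50 and −0.47, and CYTB by −0.39 and 1.15. The median of the mitochondrial genome list was −0.43 and 1.03, and that of the inflammatory cytokine list −0.36 and 0.24. IL1A went from 0.44 to 1.30 CPM and from 0.41 to 4.42 CPM, below the R2 median of 8.54 CPM in both. Each value is from 1 library a round, so no test was made.

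**Figure D4:**
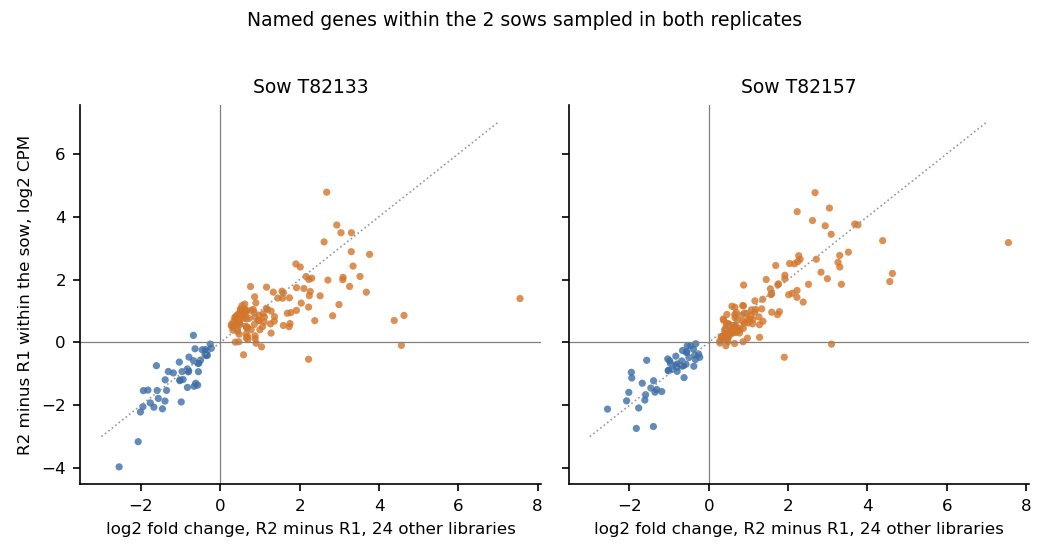
Difference R2 minus R1 in log2 CPM within sow T82133 (left) and T82157 (right), against the log2 fold change in the 24 libraries of the other sows, 1 point per gene for the 172 genes chosen for naming, with a dotted line of equality. Most points lie at the lower left and upper right, where both differences have the same sign, and IL1A, at 7.56 on the horizontal axis, is at 1.39 and 3.17 within the sows.

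At G98, where 26 of the 28 libraries come from animals also sampled at L11 in the same round, 4993 of 12273 genes (40.7%) were called between R2 and R1. At G98 2373 (19.3%) were higher and 2620 (21.3%) lower. Of genes called at both stages, 2703 had the same direction and 254 the opposite. The sows are the same, so these are not separate evidence. The difference between R2 and R1 was tested for a change from G98 to L11 within sows, and 2564 of 12729 genes (20.1%) differed, 1370 (10.8%) more positive and 1194 (9.38%) more negative at L11. Of the 172 named genes 85 differed. These were chosen from the same data, some by the p of this same difference, so their share cannot be set beside that of all genes. Of 23 immediate early genes 19 were higher at G98 (median 1.02) and 18 at L11 (1.01), but 8 differed between the stages, 4 more positive and 4 more negative at L11. NR4A3 changed by 2.31 (SE 0.38, adjusted p = 0.000112) and FOSL2 by 0.91 (SE 0.16, adjusted p = 0.000196).

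Translation and respiration genes differed between the stages, the respiratory chain genes being mostly lower in R2 at G98 and mostly higher at L11. Over all genes, 19.3% were higher and 21.3% lower at G98, and 10.8% were more positive and 9.38% more negative at L11. Of 49 ribosomal protein genes 7 were higher and 10 lower at G98 (median −0.0060), and for 40 the difference was more positive at L11, for 0 more negative. Of 28 complex I genes 0 were higher and 20 lower at G98 (median −0.32), and 20 differed, all more positive at L11. Of 31 genes of complexes II to V the counts were 0 higher and 18 lower at G98 (median −0.20), with 23 more positive at L11. Of 33 proteasome genes 2 were higher and 24 lower at G98, with 21 more positive. RPS16 was lower in R2 at G98 (−0.47, adjusted p = 0.00309) and higher at L11 (0.93), a change of 1.30 (SE 0.18, adjusted p = 2.11e-05). Plasma cell genes were 0 higher and 5 lower at G98, with 9 of 11 more positive at L11, and MHC class II genes 3 higher and 0 lower, with 5 of 8 more positive. MHC class I genes were 0 higher and 4 lower at G98, with 4 of 8 more positive at L11. Red cell genes were 0 higher and 7 lower at G98 (median −2.31), with 5 of 9 more positive at L11. Their share of counts at G98 was 9.14%, 5.41%, 9.52% and 10.1% in R1 replicates 4, 5, 8 and 14, and at most 0.848% in R2. The part of these libraries in the stage differences was not tested. Stromal genes had 0 calls of 10 in edgeR at G98 and a median of 1.78 there, and 0 differed between the stages.

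The genes named next had the smallest p for the change between stages in each direction. APEX1, a base excision repair enzyme, was at −0.13 at G98 (adjusted p = 0.303) and higher at L11, from a median of 30.1 CPM (22.0 to 39.9) to 55.97 CPM (39.4 to 76.9), a change of 1.12 (SE 0.11, adjusted p = 6.89e-07). PNO1, a ribosome assembly factor, and PFDN5, a prefoldin subunit, were lower in R2 at G98 (−0.40 and −0.74) and higher at L11 (0.39 and 0.47). RBM3 and TDG, a DNA glycosylase, were higher at both, by 0.23 and 0.26 at G98 and 1.17 and 1.03 at L11. In the other direction, EPC1, a chromatin regulator, and SNRK, a kinase, were higher at G98 (0.38 and 0.28) and lower at L11 (−0.37 and −0.52). RBM5 and CHTOP were lower at both and more so at L11, and CTDP1, a phosphatase of RNA polymerase II, was at −0.058 at G98 and lower at L11 (−0.61, no overlap).

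**Figure D5:**
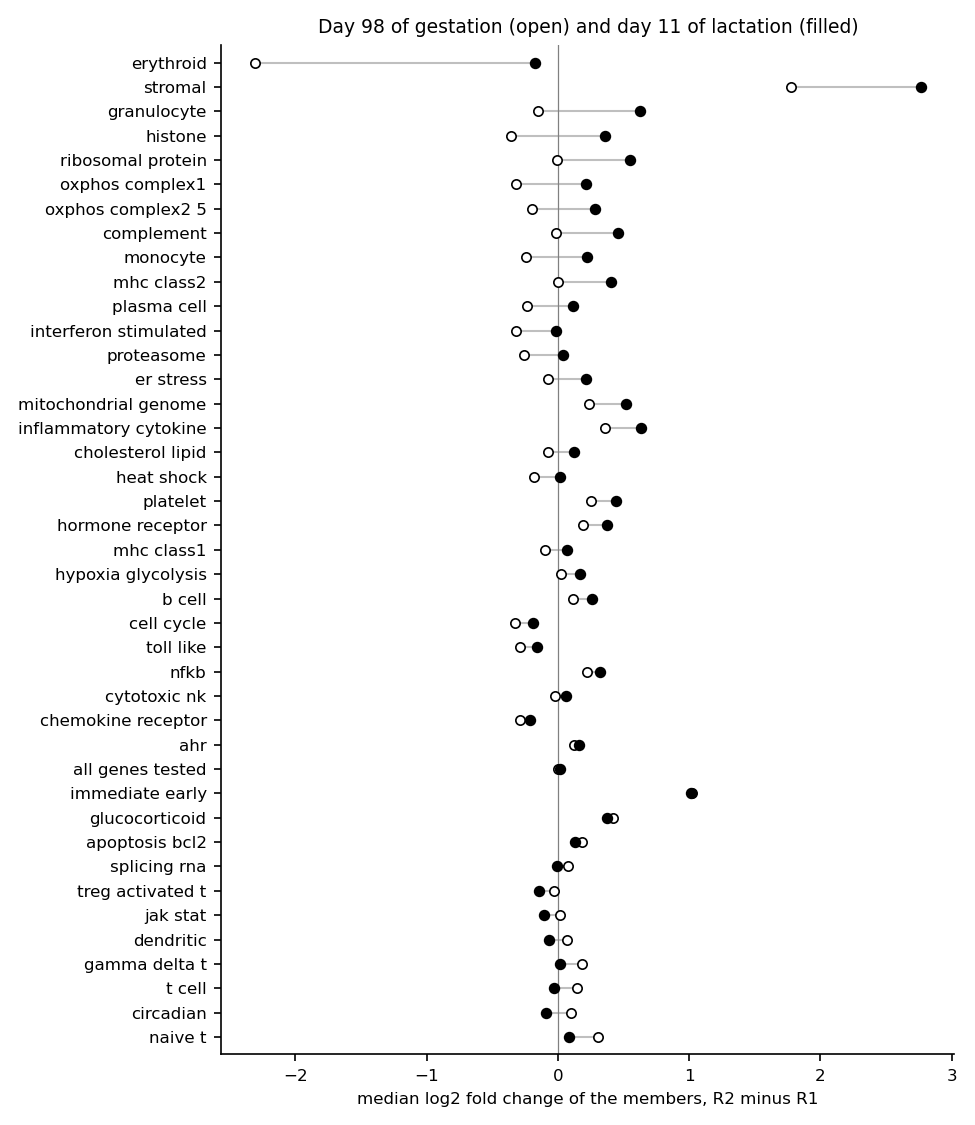
Median log2 fold change, R2 minus R1, of the tested members of each list and of all genes, at G98 (open) and L11 (filled), lists in order of the gap between stages. The red cell list has the widest gap (−2.31 and −0.17), the ribosomal protein and respiratory chain lists lie to the right at L11, and the immediate early medians are 1.02 and 1.01. Some R1 libraries at G98 were high in red cell genes.

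Whether the difference depended on parity or housing was tested within L11. For parity 0 of 12298 genes were called by edgeR (299 at an unadjusted p under 0.05) and 0 by DESeq2. For housing 30 (0.244%) were called, with 2788 at an unadjusted p under 0.05. If no gene differed, a share near 0.05 of the tested genes would fall under that p. The 2788 lie above that share and the 299 for parity below it. The count of 30 therefore does not bound how many genes depended on housing. Leaving out a single library gave 1 called (without R2 replicate 1 or R1 replicate 3) to 802 (without R1 replicate 5), with 690 without R2 replicate 12. MITF, a transcription factor of myeloid and mast cells, was the gene called in all 28 such fits. It was 31.0 ± 5.99 CPM (SD, n = 7) in conventional R1 and 18.0 ± 5.32 CPM in conventional R2, but 11.7 ± 4.63 and 29.7 ± 8.62 CPM in enriched R1 and R2, an interaction of 2.14 (SE 0.31, adjusted p = 0.00199, edgeR). CPT1A, which brings fatty acids into mitochondria, was 42.5 ± 21.6 and 60.3 ± 31.99 CPM in conventional R1 and R2 and 107 ± 53.0 and 25.6 ± 4.25 CPM in enriched R1 and R2, an interaction of −2.61 (SE 0.46, adjusted p = 0.0214, called in 26 of 28 fits). MITF, CPT1A and 4 further genes given among the closing values were chosen after their values were seen. The count of 30 came to 1 without the repeated sows, 7 with dominance added and 753 with DESeq2. Most list medians kept their sign in both housings, but not all. The granulocyte median was 0.92 in conventional and −0.39 in enriched libraries, the monocyte median 0.54 and −0.053, and the aryl hydrocarbon receptor median −0.16 and 0.39. The immediate early median was 1.31 in conventional and 0.78 in enriched libraries, ribosomal protein 0.78 and 0.35, stromal 3.47 and 1.86. Complex I was at 0.415 (15 higher, 1 lower) and 0.078 (3 higher, 1 lower), and complexes II to V at 0.343 (19 higher) and 0.185 (7 higher). The mitochondrial genome list went the other way, 0.283 (3 higher) and 0.723 (7 higher). The red cell median was −1.21 in conventional and 0.93 in enriched libraries, where −0.17 over all turned to 0.057 without the repeated sows, and these differences between housings were not tested.

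The direction of the difference varied with transcript length, span and abundance. Of the 2460 genes with the shortest transcripts (up to 1768 bases) 31.6% were higher and 12% lower, against 18.9% and 23% of the 2460 with the longest (from 5062 bases). Genes whose span was at most 1.2 times their transcript length, which have little or no intron, were 42% higher and 15% lower (n = 314), and those at 8 to 16 times 16.3% and 27.5% (n = 2450). The order turned at longer spans, with 21.3% higher and 15.2% lower at 32 to 64 times (n = 855) and 27.7% and 9.88% above 64 times (n = 506). Of genes above 8 in mean log2 CPM 48% were higher. Leaving out ribosomal protein and respiratory chain genes, the shortest group (n = 2385) was still 30.1% higher and 12.2% lower. The mean gap between length and effective length, which follows fragment size, averaged 389 bases in R1 and 414 bases in R2 (adjusted p = 0.0752, permutation test). Over 12298 genes, the R2 minus R1 shift in log2 effective length had a Spearman correlation of 0.26 with the log2 fold change. With effective length as an offset 5288 genes were called, and the part of fragment size in these differences was not tested further.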

How the data were processed

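RNA-seq of peripheral blood mononuclear cells was used. Per the labels' protocols, libraries were made from 500 ng of total RNA with a stranded mRNA kit and 12 amplification cycles. Per the submitters' processing notes the build was Sscrofa11.1, and R 4.1.2 and DESeq2 were used, with aligner, quantifier and annotation not given in the sources used here. The authors deposited, per the file headers, estimated counts and TPM with gene length and effective length for 24358 Ensembl IDs per library, of which 4.61% of the count values were not whole. Symbols were matched for 14692 IDs (60.3%), and spans, counted from 1, come from RefSeq on Sscrofa11.1, without exons or UTRs.

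Estimated counts were rounded, filtered by expression (filterByExpr), scaled by TMM and tested with edgeR 4.0.16 (quasi-likelihood, housing and parity as covariates; R 4.3.3), with Benjamini-Hochberg adjustment and an adjusted p threshold of 0.05. The SE is the log2 fold change divided by the square root of F. The stage difference was fitted with the sow as a block over 52 libraries (26 pairs). DESeq2 1.42.0 and limma 3.58.1 served as alternatives. Library measures were compared by two-sided permutation tests (100000 resamples, 16 measures, scipy 1.17.1); 2e-05 is the smallest p these can give. Scripts were tested on simulated data. No 2 libraries of a group agreed within sampling noise (chi-square per degree of freedom at least 21.8 over 182 pairs).

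The comparison, the 40 gene lists and the tests were chosen with earlier results of these data known. Genes to name were taken from those called that had a symbol and averaged 1 or more in log2 CPM. They are the 12 that rose most and the 12 that fell most, 8 each way by smallest p, at most 4 by p from every list in which 2 or more were called, and 5 each way by p for the stage difference. A few of these genes are not reported here. Other members are named for their role in a list or after their values were seen.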

Additional observations from a re-analysis of the deposited data

Results flagged for a closer look

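The difference between R2 and R1 was not the same at both stages for 2564 genes in the within-sow test, and a dependence on housing at L11 was called for 30. The latter count was unstable, being 1 without the repeated sows, 7 with dominance added and 753 with DESeq2. The values below are changes of the R2 minus R1 log2 fold change from G98 to L11, each with an adjusted p under 0.05 (quasi-likelihood test of edgeR, Benjamini-Hochberg adjustment). Among the 172 genes chosen for naming 60 were more positive and 25 more negative at L11, and 13 were called in opposite directions at the stages. The choice was made from the same data, in part by this difference, so these counts do not describe all genes. No explanation was tested.

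Translation and respiration genes were more positive at L11, namely the ribosomal proteins RPS16 (1.30), RPL11 (0.83), RPS29 (0.79) and RPSA (0.50) and the respiratory chain genes NDUFA11 (1.00), NDUFB9 (0.90), NDUFB7 (0.74), NDUFS8 (0.60), ATP5MC1 (0.68), ATP5ME (0.62), ATP5MC3 (0.58) and COX4I1 (0.42). Protein folding, turnover and secretion genes did so too, with PFDN5 (1.14), PSMA1 (0.79), XBP1 (0.64), SEC11C (0.63), HERPUD1 (0.56), PSMA5 (0.30), PSMC3 (0.30) and PSMD3 (0.25). Early response and signalling genes in this direction were NR4A3 (2.31), HBEGF (1.35), FOSL2 (0.91), ICAM1 (0.90), PDE4D (0.86), CD83 (0.81), SIK1 (0.76), PIM3 (0.71), NFKBIE (0.67), UBALD2 (0.66), TICAM1 (0.63), PER1 (0.59), PIM1 (0.51) and RNF146 (0.47). Lymphocyte, antigen presentation and interferon genes were ISG15 (1.25), BCL2A1 (0.93), GPR183 (0.80), SLA-DQB1 (0.64), PRDM1 (0.62), IRF4 (0.53), CD28 (0.46), BANK1 (0.45), SLA-DMB (0.41), CD74 (0.36), BID (0.33) and SLA-DOA (0.32). Metabolic, nuclear and RNA-binding genes were INSIG1 (1.28), APEX1 (1.12), RBM3 (0.95), PFKFB3 (0.85), TDG (0.84), PNO1 (0.81), H2BC5 (0.71), H2AJ (0.71), CRY2 (0.61), SREBF1 (0.41), HNRNPA1 (0.30) and SREBF2 (0.19).

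More negative at L11 were the nuclear and RNA genes EPC1 (−0.74), RBM5 (−0.67), LEO1 (−0.67), CTDP1 (−0.58), NOA1 (−0.54), ZNF322 (−0.54), METTL3 (−0.51), CHTOP (−0.46) and CLK4 (−0.26). The receptors, signalling and lineage genes were CDC42EP3 (−0.94), SNRK (−0.83), NFIL3 (−0.63), TBX21 (−0.59), CCR9 (−0.55), GATA3 (−0.49), TLR6 (−0.48), DTX3L (−0.46), GOPC (−0.45), ZBTB46 (−0.45), TIGIT (−0.44), CNR2 (−0.43), BCL11B (−0.38), SAMHD1 (−0.28) and RRM1 (−0.27).

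For housing, the R2 minus R1 difference of enriched less that of conventional libraries was 2.14 for MITF, −2.61 for CPT1A, 1.19 for the kinase PIK3CB, 1.06 for the checkpoint ligand PDCD1LG2, 0.81 for MCCC2, of leucine breakdown, and −0.66 for MED10, of the Mediator complex.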

How the results depend on the processing

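Of the 172 named genes, none changed direction under any alternative run. All kept their call with upper quartile scaling, DESeq2 size factors, no filter, dominance added, an effective length offset, without the red cell genes and without R2 replicate 8, as did the 168 with a DESeq2 adjusted p and the 167 that passed a stricter filter. C1QA, C1QB, C1QC and VSIG4 had no DESeq2 adjusted p, and the C1q genes did not pass the stricter filter. H2BC5 lost it without covariates (adjusted p = 0.0575), GP1BB and VSIG4 with limma voom and the sow as a random block (adjusted p = 0.0829 and 0.141), GP1BB and H2AJ without the repeated sows (adjusted p = 0.082 and 0.0513), H2BC5 and VSIG4 as well when R2 replicate 8 was also left out (adjusted p = 0.0769 and 0.0803), and 15, 30, 21 and 18 genes within conventional, enriched, HP and LP libraries. The 5322 called genes came to 4767 within conventional libraries (2419 higher, 2348 lower) but 2492 within enriched libraries (1310 higher, 1182 lower). They came to 3603 within LP libraries (1767 higher, 1836 lower) and 2541 within HP libraries (1376 higher, 1165 lower). These fits hold fewer libraries than the main fit, but equally many as each other. What set their counts apart was not tested. Leaving out each library in turn gave 5045 to 5418 called, 2550 to 2784 higher, 2463 to 2691 lower, and 1 to 802 for the housing interaction. That count of 30 was 1 without the repeated sows, 47 without R2 replicate 8, 753 with DESeq2 and 7 with dominance added, and the cause was not tested. The alternatives without both the repeated sows and R2 replicate 8, and those of the housing interaction other than leaving out the repeated sows or DESeq2 size factors, were chosen after seeing the data. No paired analysis was possible because replicate numbers within R1 and R2 only name libraries in accession order; ear tags pair 2 sows between the rounds, whose differences are given above. Counts near 0, as for IL1A in R1, limit the precision of a fold change.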
